A study of Rattus norvegicus with 20 samples.

Results

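The mir-17-92 and mir-106b-25 clusters are a pair of related groups of microRNA (miRNA) hairpins, and 10 of their precursors were followed here across rat tissues and serum: rno-mir-17-1, rno-mir-18a, rno-mir-19a, rno-mir-20a, rno-mir-19b-1 and rno-mir-92a-1 of the first cluster, rno-mir-106b, rno-mir-93 and rno-mir-25 of the second, and rno-mir-92a-2, a second copy of mir-92a. They were chosen by name, with earlier results of these data known. The prefix rno, for rat, is left out from here on. All 10 were present among the 444 precursors quantified, together with 15 of their mature arms among the 577 mature miRNAs. A further 4 arms (miR-18a-3p, miR-20a-3p, miR-19b-1-5p and miR-92a-2-5p) were not analysed here.

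Each cluster is transcribed as a single RNA from which several hairpins are cut. Both are best known for sustaining the proliferation and survival of dividing cells: mir-17-92 acts as an oncogene in lymphoma and is needed for normal B cell development, and mir-106b-25 lies within Mcm7, a gene of the DNA replication licensing complex. Their mature products share seeds, the short stretch near the 5′ end that pairs with target mRNAs, so that members of both clusters can repress the same targets, among them the cell cycle inhibitor p21 and the pro-apoptotic protein Bim.

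Small RNAs were sequenced in 20 libraries from untreated male Long Evans Hooded rats at postnatal day 35, in order to ask from which tissues serum miRNAs may come. Brain (an entire hemisphere) and serum gave 3 libraries each, run singly. Fat (subcutaneous abdominal), heart, kidney, large intestine, liver, lung, skeletal muscle (hindlimb), pancreas, skin, small intestine, spleen, stomach, testes and thymus gave 1 library each, in which the miRNAs of 3 rats were pooled, so these 14 tissues have no replicate. All groups were untreated, and none was sorted into cell types.

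The sequences below show which members share a seed (bases 2 to 8, in capitals) and which are so alike that their reads are hard to tell apart. They are RefSeq sequences of rat assembly GRCr8, whereas the reads were aligned to the older build Rn5. The first 4 miRNAs share the miR-17 seed.
miR-17-5p: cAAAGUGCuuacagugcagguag
miR-20a-5p: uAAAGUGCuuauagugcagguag
miR-106b-5p: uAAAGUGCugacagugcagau
miR-93-5p: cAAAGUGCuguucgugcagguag
The seed of miR-18a differs from it, and miR-19a and miR-19b share an unrelated seed.
miR-18a-5p: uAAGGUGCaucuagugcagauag
miR-19a-3p: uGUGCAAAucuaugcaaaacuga
miR-19b-3p: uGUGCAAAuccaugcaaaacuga
The last group carries the miR-25 seed, and includes miR-92b, which belongs to neither cluster.
miR-92a-3p: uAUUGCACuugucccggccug
miR-25-3p: cAUUGCACuugucucggucuga
miR-92b-3p: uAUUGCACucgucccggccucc

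In GRCr8 the 6 hairpins of mir-17-92 lie on the plus strand at chr15:98587848-98588632, a span of 785 bases with no larger gene of the RefSeq table around it and Gpc5 as the next coding gene. The 3 hairpins of mir-106b-25 lie on the minus strand at chr12:22156641-22157123, inside Mcm7. The mir-92a-2 copy is not part of mir-17-92: it lies on the X chromosome in the related mir-106a-363 cluster (chrX:137342777-137343647, minus strand), beside mir-19b-2 and mir-20b. This matters for counting. The mature sequences of miR-17-5p, miR-19b-3p and miR-92a-3p were identical at both of their loci, miR-19a-3p and miR-19b-3p differed at 1 of 23 bases, and miR-92a-3p differed from miR-92b-3p at 2 of 21 bases compared from the 5′ end and from miR-25-3p at 3. The split of reads between mir-92a-1 and mir-92a-2, or between other copies, is therefore uncertain.

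Values were expected counts of reads, given here as RPM, the reads of a miRNA for each 1000000 reads in the same annotation list. The total number of precursor reads was 388275 to 1204552 in brain, 162080 to 3685761 in the pools and only 7556 to 10862 in serum. A count of 3 reads, taken as the limit of detection, was worth 0.814 to 18.5 RPM in the tissue pools and 276 to 397 RPM in serum. All intervals and limits given for single libraries cover counting error only. The label of 1 pool was not borne out by 2 of 3 pancreas markers. The pancreas library held no read of mir-216a or mir-217, which mark pancreatic acinar cells. The third marker, mir-375, had 100 reads there (496 RPM), and liver held 753 RPM of it. Hepatocyte mir-122 reached 14862 RPM in this library, close to the 14726 RPM of the liver pool. Mir-192 (232017 RPM, liver 228719 RPM) and mir-194-1 (2013 RPM, liver 2034 RPM) were also alike in both pools. The values of this pool are given as those of the library labelled pancreas. Neuronal precursors (mir-124 and mir-9a-1 copies) summed to 14533 to 18386 RPM in the hemispheres and to at most 52.3 RPM in the pools.

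The clusters were highest in thymus and spleen. Thymus, where T cells divide and mature, held the highest tissue level of 7 of the 10 precursors, and spleen the highest level of the other 3 (mir-19a, mir-19b-1 and mir-20a), with thymus second for each of these. Thymus or spleen remained the highest tissue for all 10 after rescaling by TMM or by DESeq2 size factors, which moved the median level of a tissue by up to 1.15 and 1.49 on the log2 scale. In these bulk samples, fewer cells of a type and less RNA per cell cannot be told apart. The leukocyte precursors mir-142, mir-223 and mir-150 summed to 65613 RPM at most, in thymus, against a median of 1345 RPM over the pools and 237 to 403 RPM in brain. Nearly all of the sum in thymus was mir-142 (65299 RPM, against 59167 RPM in spleen). The other markers were not highest there: mir-223 was at 33.4 RPM in thymus and 365 RPM in spleen, and mir-150 at 281 RPM in thymus, 2498 RPM in spleen and 2072 RPM in fat. Their part in the levels of the clusters was not tested.

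**Figure D1:**
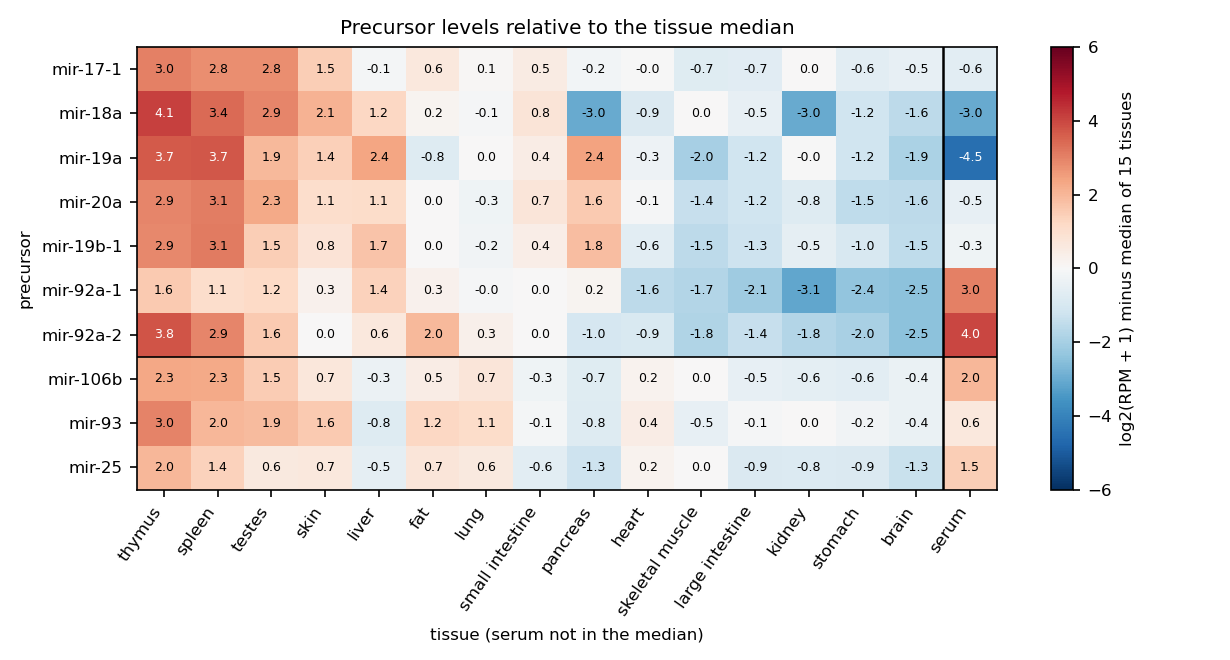
Level of each precursor (rows) in 15 tissues and serum (columns), as log2(RPM + 1) minus the median of the 15 tissues. Brain and serum are means of 3 libraries and each other column is 1 pool. Thymus and spleen are the highest 2 tissues in 9 of 10 rows (for mir-92a-1, liver and testes lie between them), brain is below the median in all 10, and in serum the mir-92a precursors stand above the median while mir-19a, with 0 reads, stands at -4.5.

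Mir-17-1, the first hairpin of its cluster, was present at 24.1, 38.6 and 20.6 RPM in the 3 hemispheres. The pools ranged from 23.0 RPM in skeletal muscle through a median of 40.1 to 323 RPM in thymus. Spleen (281 RPM) and testes (278 RPM) had intervals overlapping that of thymus, and no other pool exceeded 112 RPM (skin). Neighbours in the order of the 14 pools overlapped in 11 of 13 cases, so that only the broad grouping, with thymus, spleen and testes above the rest, can be read from it.

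Mir-18a and mir-19a had the fewest reads over all libraries. Mir-18a had 4 reads in all 3 hemispheres together (1.66, 3.50 and 0 RPM) and no read in kidney or in the library labelled pancreas. It reached 138 RPM in thymus and 84.3 RPM in spleen. Mir-19a was at 7.47, 5.26 and 2.58 RPM in the hemispheres, and at 4.76 RPM in skeletal muscle, 305 RPM in spleen and 290 RPM in thymus.

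Mir-19b-1, whose mature product has the same seed as mir-19a, gave more reads in every tissue library. It was at 58.9, 78.9 and 38.6 RPM in the hemispheres and at 58.7 (skeletal muscle), 200 (median) and 1499 RPM (spleen) in the pools. Mir-20a, whose seed is that of mir-17, was at 9.13, 8.76 and 15.5 RPM in the hemispheres, with a pool range of 11.3 RPM (stomach) to 295 RPM (spleen). Its brain mean (11.1 ± 3.76 RPM, SD, n = 3) was the lowest of the 15 tissues, although stomach, skeletal muscle (12.7 RPM) and large intestine (14.7 RPM) fell within the range of the hemispheres.

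Mir-92a-1, the last hairpin of the cluster, made up most of its reads. The hemispheres gave 936, 962 and 816 RPM. The pools ranged from 580 RPM in kidney through a median of 5337 to 14940 RPM in thymus, and liver came second with 13162 RPM, above testes (11494 RPM) and spleen (10473 RPM). These 4 tissues had intervals apart from one another, and 9 of the 13 neighbouring pairs in the order of the pools were apart. Liver was thus among the highest tissues for mir-92a-1 while its mir-17-1 (36.6 RPM) was below the median of the pools.

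Mir-92a-2, the X-linked copy, had a different order. Thymus (2610 RPM) and spleen (1462 RPM) led, and fat (740 RPM) came next. The hemispheres gave 41.5, 26.3 and 33.5 RPM, below the lowest pool (stomach, 47.9 RPM). The ratio of mir-92a-1 to mir-92a-2 reads ran from 5.72 in thymus and 7.16 in spleen to 44.5 in liver and 59.7 in the library labelled pancreas.

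In the mir-106b-25 cluster, mir-25 was the most abundant member, followed by mir-93 and mir-106b, in every tissue library. Mir-25 was at 907, 727 and 616 RPM in the hemispheres, and its mean there (750 ± 147 RPM, SD, n = 3) was the lowest of the 15 tissues, next to 793 RPM in the library labelled pancreas. In the pools its median was 2064 RPM and its highest level 7498 RPM, in thymus. Spleen (4962 RPM) and fat (3136 RPM) followed.

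Mir-93 was at 426, 368 and 371 RPM in the hemispheres, at a median of 604 RPM in the pools, and at 4093 RPM in thymus, 2066 RPM in spleen and 1913 RPM in testes. Liver (302 RPM) and the library labelled pancreas (297 RPM) were lower than every hemisphere. Mir-106b was at 66.4, 71.8 and 48.9 RPM in the hemispheres, and the pools ran from 49.6 RPM (labelled pancreas) through 87.8 to 419 RPM (thymus). Brain was thus low for the whole cluster but not the lowest tissue for mir-93 or mir-106b.

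**Figure D2:**
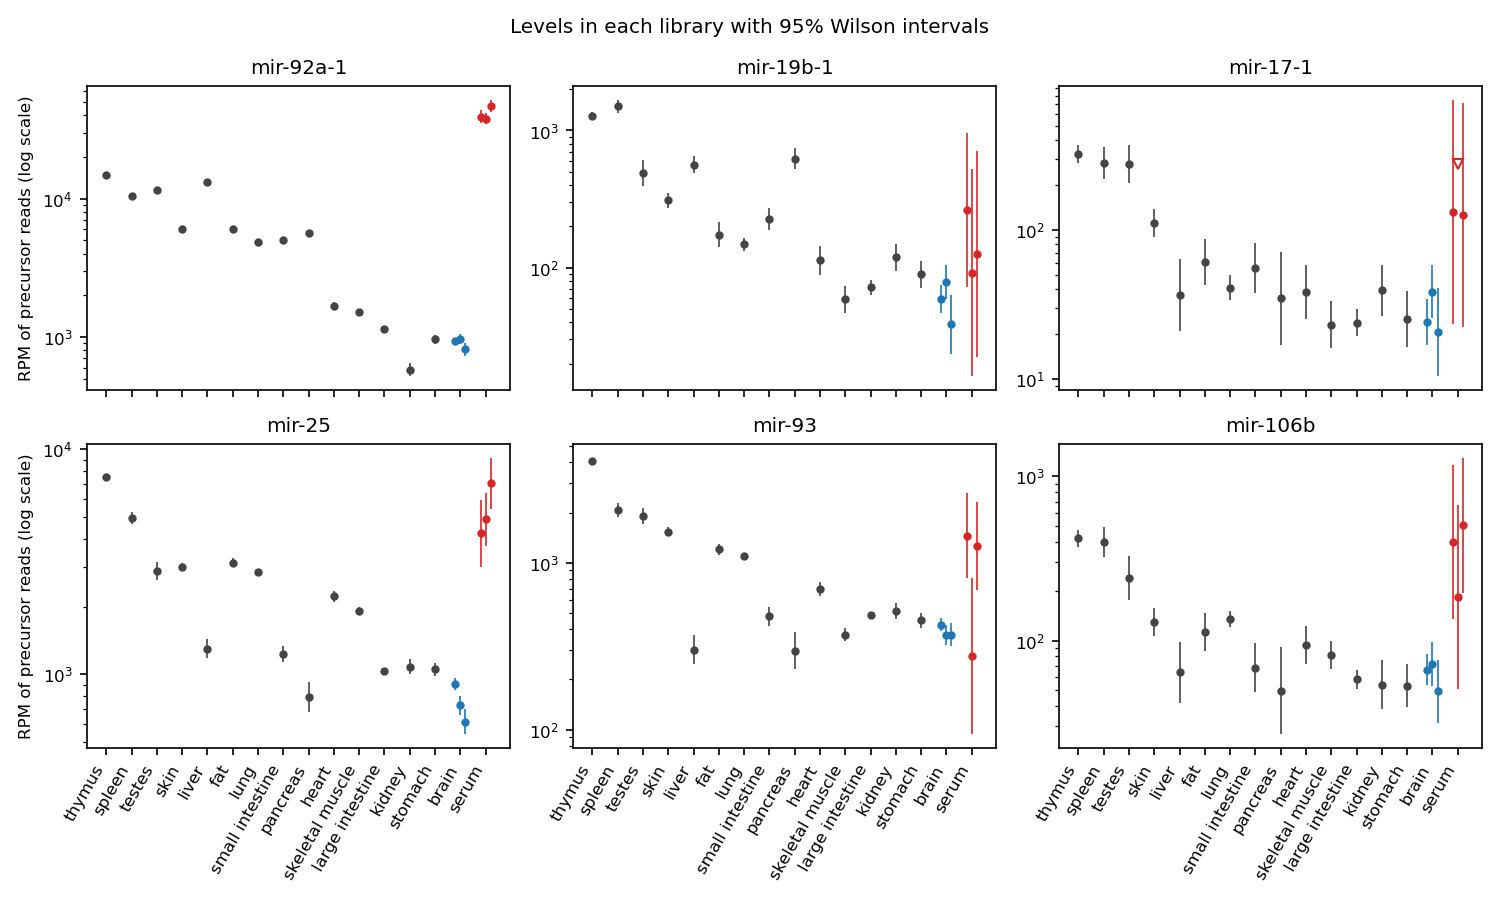
Levels of 6 precursors in each library, in RPM on a log axis, with 95% Wilson intervals (bars). Grey points are pools, blue points the 3 hemispheres and red points the 3 serum libraries; the open triangle marks a serum library with 0 reads at its limit of 3 reads. Mir-92a-1 in serum (37930 to 47037 RPM) stands above every tissue, while the few serum reads of mir-17-1 and mir-19b-1 leave wide intervals.

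Hairpins cut from 1 transcript need not be found at equal levels, and the tissues differed in the balance within a cluster. The summed reads of mir-17-92 were 0.741 to 0.940 times those of mir-106b-25 in the hemispheres. In the pools this ratio had a median of 1.43, a lowest value of 0.473 in kidney and a highest of 8.38 in liver, followed by 5.71 in the library labelled pancreas and 3.06 in small intestine. It was 5.37 to 7.12 in serum. Reads of different miRNAs may be captured unequally, so ratios are compared here between libraries and not taken as ratios of molecules.

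With mir-92a-1 left out, mir-17-1 gave 12 of 266 reads of the remaining 5 hairpins in liver (4.51%, 95% Wilson interval 2.60 to 7.72) and 7 of 178 in the library labelled pancreas (3.93%, 1.92 to 7.89). In testes it gave 45 of 176 (25.6%, 19.7 to 32.5) and in the hemispheres 23.8, 28.6 and 26.7%. The ratio of mir-19b-1 to mir-17-1 reads was 1.88 to 2.45 in the hemispheres, 1.76 in testes, 5.33 in spleen, 15.4 in liver and 18 in the library labelled pancreas. Liver and the library labelled pancreas thus stood apart from the other pools by a low share of mir-17-1. Several marker levels were alike in these libraries, and whether they are separate tissues was not tested. Their shares of mir-19a and mir-19b-1 were the highest of the pools but had intervals that overlapped those of others: mir-19a took 14.3% in liver (10.6 to 19) and 12.6% in thymus (11.0 to 14.3), and mir-19b-1 took 69.5% in liver (63.8 to 74.8) and 65.1% in stomach (55.8 to 73.4).

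**Figure D3:**
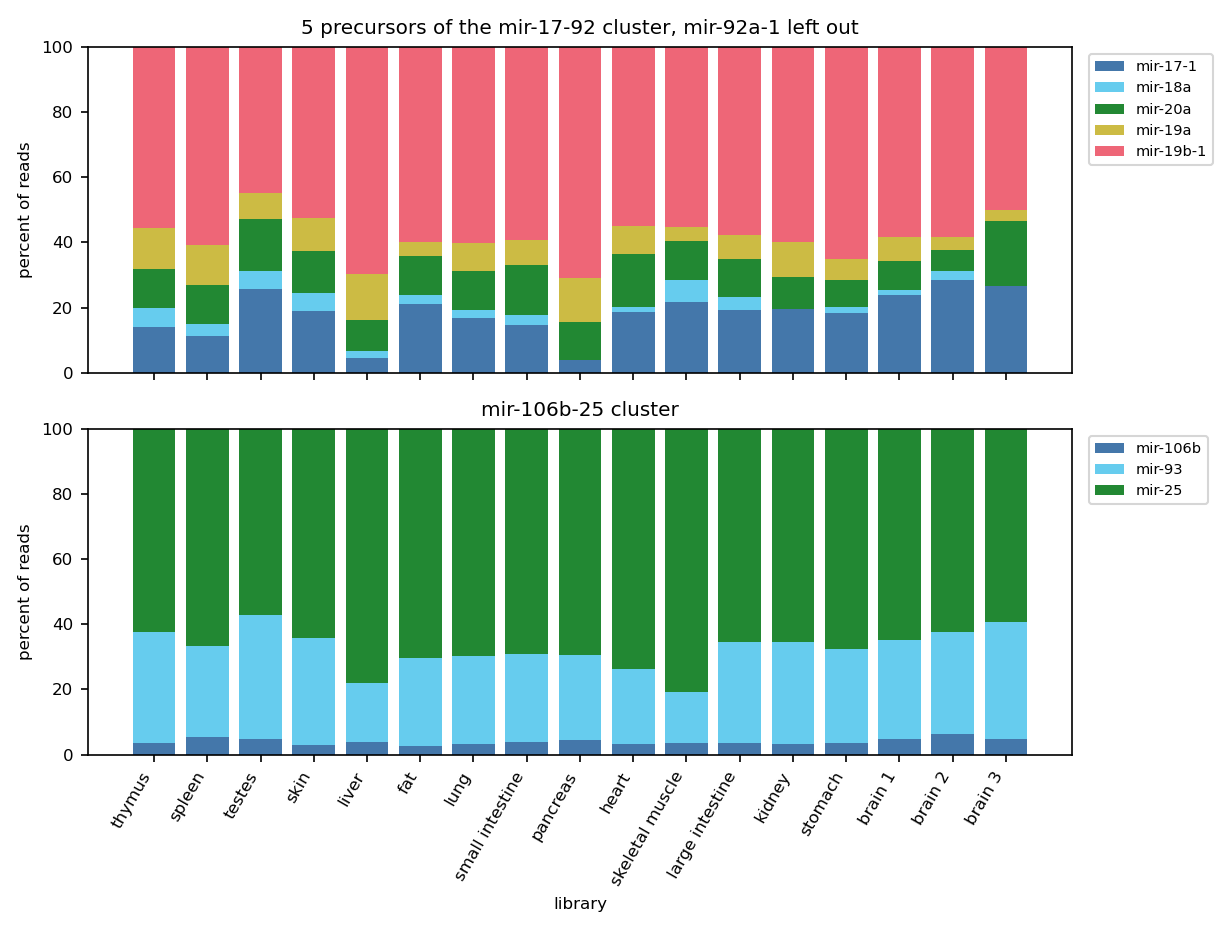
Share of reads (percent, from 0 to 100) taken by each precursor in each tissue library, for the 5 mir-17-92 precursors other than mir-92a-1 (upper) and for the mir-106b-25 cluster (lower). Mir-17-1 (dark blue) is smallest in liver (4.51%) and in the library labelled pancreas (3.93%), and mir-93 (light blue, lower) is smallest in skeletal muscle.

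Within mir-106b-25, the ratio of mir-25 to mir-93 was lowest in testes (1.5) and highest in skeletal muscle (5.14) and liver (4.31), with 1.66 to 2.13 in the hemispheres. The shares of each member within its cluster were compared between brain and the 14 pools. A two-sided exact permutation test of the difference in means was used (680 splits), adjusted by Benjamini-Hochberg over 9 shares. Since the hemispheres are 1 tissue and the pools are 14, these p-values can be too small. No share passed the threshold of 0.05 after adjustment, and 1 did before it. This was mir-106b, at 5.21 ± 0.820% of its cluster in brain (SD, n = 3) against 3.66 ± 0.757% in the pools (SD, n = 14; exact p = 0.0206, adjusted p = 0.185), with 12 of 14 pools below every hemisphere. The next was mir-25, at 62.2 ± 2.69% against 68.6 ± 6.10% (exact p = 0.0794, adjusted p = 0.357). Mir-17-1 took 2.71 ± 0.693% of its cluster in brain and 1.73 ± 1.16% in the pools (exact p = 0.209, adjusted p = 0.376); without the kidney pool, in which its share was highest (5.03%), its adjusted p was 0.0321, with a difference of 1.24 percentage points.

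Across the 15 tissues, levels of the 6 mir-17-92 precursors followed one another with Pearson's r of 0.61 to 0.99 (median 0.81, 15 pairs, log2(RPM + 1)), and those of the 3 mir-106b-25 precursors with r of 0.92 to 0.93. Between the clusters the median was 0.66 (18 pairs). The closest pair was mir-19a with mir-19b-1 (r = 0.99), and the most distant over all 15 tissues was mir-19a with mir-25 (r = 0.53). Without the library labelled pancreas this pair had r = 0.69, the most distant pair was mir-92a-1 with mir-93 (r = 0.64), and the medians were 0.88 within mir-17-92, 0.93 within mir-106b-25 and 0.77 between them. Without thymus and spleen the medians were 0.70 within mir-17-92, 0.88 within mir-106b-25 and 0.43 between them. Points share a library and its depth, and these values are descriptions without a test.

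The other precursors whose profile was most like the mean profile of mir-17-92 over the 15 tissues were mir-872 (r = 0.83), mir-15b (0.80), mir-16 (0.77), mir-142 (0.76) and mir-425 (0.76), out of 281 candidates. For mir-106b-25 they were mir-16 (r = 0.92), mir-140 (0.90), mir-425 (0.79), mir-484 (0.75) and mir-130b (0.74). Mir-16 and mir-15b restrain the cell cycle, and mir-142 marks blood cells. Mir-16 and mir-425 appeared in both lists.

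Brain was compared with the 14 pools by edgeR's quasi-likelihood test over 295 precursors with at least 10 reads in at least 3 of the libraries. All 10 members passed this filter and were called lower in brain at an adjusted p below 0.05, against 18.6% of all precursors tested that were called lower. However, 4 of them (mir-17-1, mir-18a, mir-19a and mir-20a) passed it only through the pools, where they were higher, since they had under 10 reads in at least 1 hemisphere, so their calls carry less than those of the rest. The other 6 reached 10 reads in every hemisphere and in every pool, and their median log2 difference was -3.19, against 0.17 over all precursors. The fit sets brain against the mean of the pools, which the highest pools raise: every hemisphere was below every pool only for mir-92a-2, 1 of 10 members, against 3.73% of all precursors tested.

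Mir-25, with the smallest adjusted p of the 10, had a mean of 750 RPM in brain and 2495 RPM in the pools (log2 difference -2.66 ± 0.52, SE, adjusted p = 0.000552). Mir-92a-1 had 905 RPM against 5972 RPM (-3.73 ± 0.94, adjusted p = 0.00507). The fitted difference was largest for mir-19a (5.10 against 78.6 RPM, -4.67 ± 1.34, adjusted p = 0.0113), which had 9, 3 and 1 reads in the hemispheres and passed the filter only through the pools. Mir-106b differed least (62.4 against 140 RPM, -2.06 ± 0.60, adjusted p = 0.0120). The fitted differences include TMM scaling, which the RPM means beside them do not, so the 2 are not the same effect size. The others lay between -4.57 (mir-92a-2) and -2.43 (mir-93), with mir-18a at -4.49 having the largest adjusted p, 0.0327.

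These calls changed with the libraries used and with scaling. The 3 hemispheres are 1 tissue, whereas the pools are 14, so the p-values can be too small. Without hemisphere 1, 2 or 3 the calls fell to 2 of 10 each time (mir-92a-1 and mir-25). With hemisphere 1 alone 0 of 10 were called. In that fit brain had 1 library, which was assumed to vary as the pools do. The differences were of similar size (-2.93 for mir-17-1 and -3.65 for mir-92a-1, against -2.69 and -3.73 with all 3). Without scaling beyond library totals the calls fell to 6 of 10, with mir-17-1, mir-18a, mir-93 and mir-106b no longer called. The differences of these precursors were then smaller, at -1.82, -3.80, -1.52 and -1.16, against -2.69, -4.49, -2.43 and -2.06 with TMM. The difference stayed negative for all 10 under each of these settings, and all 10 remained called without any one pool, thymus or spleen included.

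**Figure D4:**
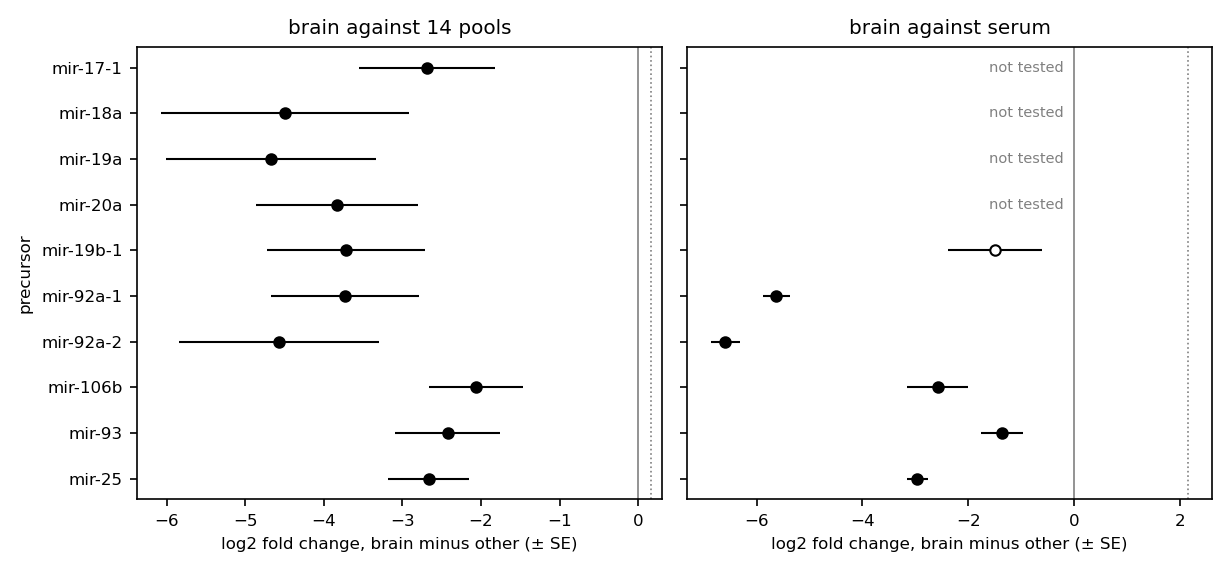
Log2 difference of each precursor, brain minus the 14 pools (left) and brain minus serum (right), with its SE, from edgeR. Filled points have an adjusted p below 0.05, open points do not, and dotted lines mark the median of all precursors tested (0.17 and 2.15). All 10 members lie left of 0 against the pools, and 6 could be tested against serum.

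Among the mature arms, 11 of 15 were tested against the pools and 10 were called lower in brain, against 24.1% of the 290 mature miRNAs tested. Of the 11, 6 passed the filter only through the pools. The other 5 (miR-19b-3p, miR-92a-3p, miR-106b-5p, miR-93-5p and miR-25-3p) were all called, with a median log2 difference of -3.08 (all mature miRNAs, -0.28). MiR-25-3p had 806 RPM in brain and 3224 RPM in the pools (-3.08 ± 0.65, adjusted p = 0.000927). The arm not called was miR-106b-3p (-1.75 ± 0.76, adjusted p = 0.0694), which was called without the library labelled pancreas (adjusted p = 0.0232), with DESeq2 size factors in edgeR (0.0494) and by DESeq2 (0.00272). Without scaling beyond totals, miR-106b-5p (adjusted p = 0.108), miR-93-5p (0.102), miR-92a-3p (0.0863) and miR-17-5p (0.0768) were no longer called. Without hemisphere 1, 2 or 3, 1 arm (miR-25-3p) remained called each time, and none with hemisphere 1 alone, again with the spread taken from the pools.

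Related miRNAs outside the 10 did not all follow them. Of 9 relatives on a fixed list, 6 were quantified and 4 could be tested against the pools: 1 was called higher in brain, 1 lower and 2 were not called. The one called higher was mir-92b, which has the seed of mir-25 and is known from neural progenitors, at 2840, 3727 and 4002 RPM in the hemispheres. In the pools its median was 15.8 RPM, and lung stood apart at 745 RPM (log2 difference 4.93 ± 1.05, adjusted p = 0.00130). Mir-19b-2 was called lower (-3.37 ± 1.12, adjusted p = 0.0242). Mir-363 (-3.41, adjusted p = 0.0881) and mir-17-2 (-2.66, adjusted p = 0.0790), both X-linked, were highest in thymus at 1064 and 85.0 RPM.

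In serum the clusters were present mainly as mir-92a and mir-25. The 10 precursors took 4.60 to 5.99% of serum precursor reads, against 0.196 to 0.248% in brain and 0.249 to 3.19% in the pools. Mir-92a-1 was at 39307, 37930 and 47037 RPM and mir-92a-2 at 2912, 2670 and 3657 RPM, each above every tissue. Mir-25 was at 4235, 4879 and 7062 RPM, with a mean (5392 ± 1481 RPM, SD, n = 3) between those of spleen and thymus.

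The rest were near or under the limit of detection. Mir-106b had 3, 2 and 4 reads and mir-93 had 11, 3 and 10. Mir-17-1 and mir-20a had 2 reads each over the 3 serum libraries, mir-19b-1 had 4, and mir-18a and mir-19a had 0 of the summed serum reads, which allows a level of up to 114 RPM. The brain levels of mir-17-1, mir-18a, mir-19a, mir-20a, mir-19b-1, mir-106b and mir-92a-2 would not have been detectable at this depth.

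Of the 10, 6 passed the filter for a test of brain against serum (235 precursors), and 5 were called lower in brain, against 18.7% of all precursors tested. Mir-92a-1, mir-92a-2 and mir-25 reached 10 reads in every serum library, whereas mir-106b, mir-93 and mir-19b-1 passed only through brain. For 5 of the 6, every hemisphere was below every serum library, against 20.9% of all precursors tested. For mir-19b-1 and mir-106b, with 1 to 4 reads in each serum library, nothing can be read from this, since a single serum read was worth 92.1 to 132 RPM, more than the level in any hemisphere. The separation of mir-92a-1, mir-92a-2 and mir-25 rested on 22 to 412 reads in each serum library. Mir-92a-1 (log2 difference -5.63 ± 0.26, adjusted p = 5.94e-09) and mir-92a-2 (-6.59 ± 0.27, adjusted p = 5.03e-09) differed most. Mir-25 (-2.96 ± 0.20, adjusted p = 1.28e-07) and mir-106b (-2.58 ± 0.58, adjusted p = 0.00193) followed, and mir-106b was no longer tested when any hemisphere was left out. Mir-93 (-1.37 ± 0.40, adjusted p = 0.00994) did not separate the groups, since its lowest serum library (276 RPM) was below every hemisphere; it was not called without serum replicate 1 (adjusted p = 0.113) or without any hemisphere (adjusted p = 0.375 to 0.493). Mir-19b-1 was not called (-1.50 ± 0.89, adjusted p = 0.153), though DESeq2 called it (-1.72, adjusted p = 0.0399). All 6 members had a negative difference, whereas 44.7% of precursors were called higher in brain and the median log2 difference was 2.15. Precursors could pass the filter through the deeper brain libraries alone, so this median and the shares called depend on the filter. With any hemisphere left out, 68 precursors could be tested. Of these, 29 to 30 were called higher in brain and 25 to 28 lower, 3 of the latter members.

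Red cell precursors (mir-451 and mir-144, with mir-486 not analysed here) summed to 2210 to 4288 RPM in serum, 4.15 to 21 RPM in brain, and 2.44 to 12816 RPM in the pools, highest in spleen. Leukocyte precursors summed to 7089 to 14029 RPM in serum. Hepatocyte mir-122 was at 21175, 142147 and 10340 RPM in the 3 serum libraries, the second of which stood apart, while mir-92a-1 ranged from 37930 to 47037 RPM over the same libraries. The part of these cells in the serum levels was not tested.

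Within mir-17-92, mir-92a-1 took 99.2 ± 0.543% of serum reads and 89.8 ± 1.87% of brain reads (SD, n = 3 each). Within mir-106b-25, mir-25 took 80.3 ± 10.9% and 62.2 ± 2.69%, and mir-93 took 14.5 ± 9.37% and 32.6 ± 2.85%. In each of these 3 shares the serum and brain libraries did not overlap, which with 3 against 3 gives the smallest p the exact two-sided permutation test allows, 0.1, so none could pass the threshold. Summed by seed, members with the miR-25 seed took 75.2 ± 0.736% of the reads of all 10 in brain, 69.1 (kidney) to 92.6% (liver) in the pools and 96.8 ± 1.87% in serum. Those with the miR-17 seed took 21.9 ± 1.15% in brain, 3.00 (liver) to 25.3% in the pools and 2.90 ± 1.72% in serum.

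The mature list gave a different picture of mir-92a. For each 100 reads on the mir-92a precursors, the listed mature arms held 5.63, with 3.04 to 10.1 across the tissue libraries and 4.48 in serum. The corresponding values were 93.7 for mir-25, 91.8 for mir-93, 98.4 for mir-19b, 84.2 for mir-19a, 74.8 for mir-106b, 66.3 for mir-20a, 64.9 for mir-18a and 62.1 for mir-17. Of 127 hairpin names with both arms listed and at least 1000 reads, 13 held under 10 mature reads for each 100 precursor reads, and the median was 77.9. Far fewer reads were thus counted on the mature entries of mir-92a than on its precursor entries, and why was not tested. Both lists count small RNA reads, so the gap is not a measure of unprocessed hairpin against mature miRNA.

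**Figure D5:**
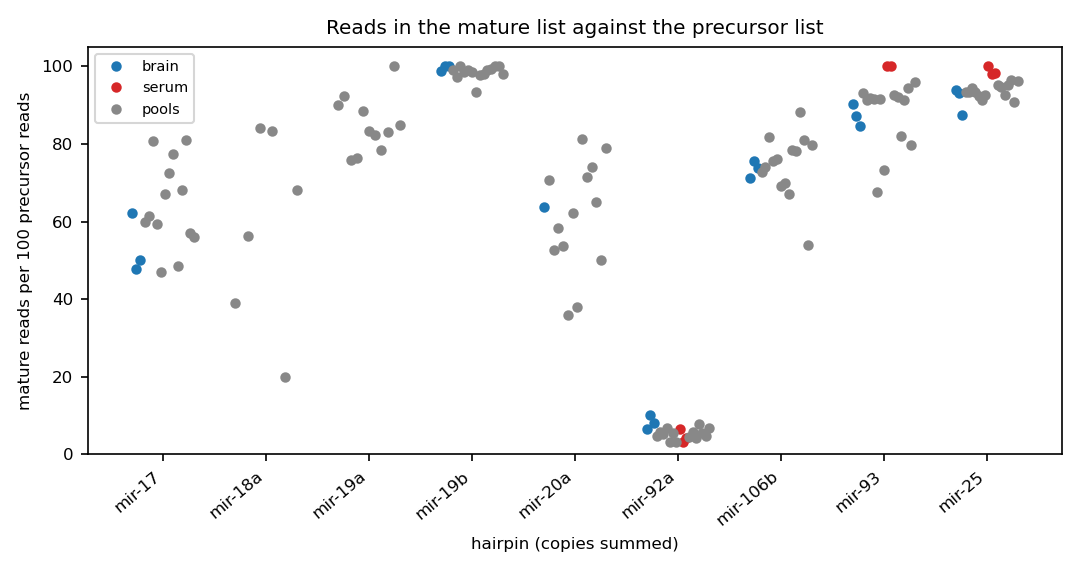
Mature reads for each 100 precursor reads of the same hairpin (copies summed), by library, for libraries with at least 10 precursor reads. Blue points are brain, red points serum and grey points the pools. The mir-92a points lie between 3.04 and 10.1, below every other point shown, of which the lowest is a mir-18a point at 20.0.

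On the mature list miR-25-3p therefore led in place of miR-92a-3p. MiR-92a-3p was at 63.7, 111 and 76.3 RPM in the hemispheres, 39.6 (kidney) to 1236 RPM (thymus) in the pools and 3888, 1994 and 3132 RPM in serum. MiR-25-3p was at 1001, 785 and 632 RPM in the hemispheres, 1154 (stomach) to 8968 RPM (thymus) in the pools and 6343, 7405 and 10135 RPM in serum. Both orders had thymus highest, and serum was above every tissue for miR-92a-3p. Against serum, miR-92a-3p (-4.74 ± 0.35, adjusted p = 8.46e-15) and miR-25-3p (-2.88 ± 0.37, adjusted p = 1.26e-08) were called lower in brain, as were miR-93-5p (-1.36, adjusted p = 0.00298) and miR-19b-3p (-1.76, adjusted p = 0.0233). These were 4 of the 5 arms tested, against 14.2% of the 212 mature miRNAs tested, a share that likewise depends on the filter. With any hemisphere left out, 50 mature miRNAs could be tested and 17 to 21 were called lower in brain, 2 of them members. MiR-93-5p, miR-19b-3p and the remaining arm, miR-106b-5p, passed the filter only through brain. The call of miR-19b-3p was lost without any 1 serum library (adjusted p = 0.134, 0.0939 and 0.0806 without replicates 1, 2 and 3) and with no count filter (0.469), and the arm was not tested without any hemisphere. The call of miR-93-5p was lost without serum replicate 1 (0.137), without any 1 hemisphere (0.228 to 0.334) and with no count filter (0.460). MiR-106b-5p was not called (-2.09 ± 1.21, adjusted p = 0.118), but it was by DESeq2 (0.0346), with DESeq2 size factors in edgeR (0.0486) and without scaling beyond totals (0.0348).

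Each hairpin can give a mature miRNA from either arm. Mir-93 (99.8% from the 5p arm), mir-25 (99.8% from the 3p arm), mir-19a (97.5%, 3p) and mir-17-1 (92.6%, 5p) each gave reads almost entirely from 1 arm. The value for mir-17-1 counts all reads of miR-17-5p, which has the same sequence at its second locus. Mir-106b used both: its 5p arm took 82.3% of mature reads in thymus (95% Wilson interval 76.7 to 86.8, 220 reads) and 42.6% in lung (36.3 to 49.2, 223 reads). In the hemispheres it took 43.9, 61.3 and 78.6%, of 57, 31 and 14 reads. The order of the arms of mir-106b thus differed between thymus and lung by more than counting error, with 1 library each, and the hemispheres spanned most of the range between them.

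Of the reads of miR-92a-1-5p and miR-92a-3p together, miR-92a-1-5p took 46 of 93 in testes (49.5%, 39.5 to 59.4) and 50 of 196 in spleen (25.5%, 19.9 to 32.0). It took 14.8% over all pools together (13.6 to 16.1) and 10% over the hemispheres (6.25 to 15.6). Since miR-92a-3p also comes from mir-92a-2, these are not shares within the mir-92a-1 hairpin. MiR-92a-1-5p reached its highest level in testes, 470 RPM. Since few mir-92a reads were on the mature list, this split describes those reads only.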

How the data were processed

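Tissues were kept in RNAlater, miRNAs were purified with miRNeasy kits, and TruSeq Small RNA libraries were sequenced on a MiSeq. Per the study's methods, the authors trimmed bases of low quality, aligned reads to Rn5 with Bowtie in Partek Flow and counted them on miRBase and RefSeq entries. The deposited annotation labels name miRBase release 21, whereas the study's text names the release before it. Versions of Bowtie, Partek Flow and RefSeq are not given in the sources used here. The authors deposited expected counts without normalization, in 3 annotation lists (precursor, mature and RefSeq) for each of the 20 libraries. The values of the members were all whole numbers (tolerance 0.001). They were divided by the total of the list to give RPM, and 1 RPM was added before log2. Because of the shallow serum libraries, the precision of serum values rests on 7556 to 10862 precursor reads.

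Brain was compared with the pools and with serum in edgeR 4.0.16 (quasi-likelihood test, TMM scaling, R 4.3.3), for features reaching 10 counts in 3 or more of the libraries compared, with counts rounded to whole numbers and p-values adjusted by Benjamini-Hochberg over all features of the list (threshold 0.05). DESeq2 1.42.0, other scalings, filters and left-out libraries were alternatives. Fits were tested on simulated data. Of 8-fold changes put into these data, 47.0% (mature) and 47.3% (precursor) were recovered against the pools, and 77.3% and 75.0% against serum. Shares were compared by exact permutation. P-values measure the spread between these libraries. All members and their arms were named, a list of 9 relatives (mir-17-2, mir-20b, mir-18b, mir-106a, mir-19b-2, mir-363, mir-92b, mir-32 and mir-367) was used, and the 5 other precursors most like each cluster were taken by Pearson's r. The members and lists were chosen with earlier results of these data known. Serum and hemispheres came from the same 3 rats and share replicate numbers, so the numbers were also fitted as a block; deviations of same-numbered libraries from their group means correlated at 0.09, -0.11 and -0.04 over 75 precursors. Replicates of a group differed by more than sampling noise. RefSeq sequences matched all members by name.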

Additional observations from a re-analysis of the deposited data

How the results depend on the processing

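Of 599 refits of a member's difference between brain and another group, 0 changed direction. The refits reuse the same libraries, so they are not independent of one another. Counts of calls moved most with the number of libraries. Leaving out 1 library gave 55 to 141 precursors called against serum (29 to 102 higher and 25 to 43 lower in brain, 3 to 5 of them members) and 36 to 128 mature miRNAs (19 to 101 higher, 17 to 29 lower, 2 to 3 members). The low ends came from leaving out a hemisphere, after which a precursor needed 10 counts in a serum library as well to be tested, so that 68 of 235 precursors and 50 of 212 mature miRNAs were left. Against the pools the ranges were 38 to 148 precursors (24 to 84 higher, 14 to 64 lower, 2 to 10 members) and 39 to 140 mature miRNAs (22 to 88 higher, 15 to 75 lower, 1 to 11 members), again lowest without a hemisphere. With hemisphere 1 alone, an alternative added after seeing the data, 12 precursors and 7 mature miRNAs were called, all higher in brain, and 0 members, with the lone brain library assumed to vary as the pools do. Without scaling beyond totals, 123 precursors were called higher and 24 lower than in the pools (6 members), and 88 mature miRNAs higher and 29 lower (6 members), so that the split turned towards brain. DESeq2 called 119 precursors lower. With no filter, 94 mature miRNAs were higher, and on the RefSeq list 44 entries were lower. With 10 counts required in every library, fewer features were tested. The calls against serum were then 46 precursors (26 higher, 20 lower, 3 members) and 26 mature miRNAs (14 higher, 12 lower, 2 members), and against the pools 32 precursors (11 higher, 21 lower, 6 members) and 29 mature miRNAs (4 higher, 25 lower, 4 members). The replicate block gave 141 precursors and 125 mature miRNAs against serum, with 5 and 4 members lower in brain, and changed no member's call. For the shares within a cluster, 0 to 1 passed when a library was left out. The difference of the mir-92a-1 share was -0.12 percentage points with copies summed in place of 0.55, and ranged from -0.59 to 1.58 when a library was left out. That of mir-19b-1 ranged from -1.40 to 0.0291 and that of mir-20a from -0.44 to 0.0253. None of these 3 shares was called. There were 9 dominant mature arms, since mir-92a-1 and mir-92a-2 share miR-92a-3p. Of these 9, 8 had thymus or spleen highest (miR-17-5p was highest in testes), and all 9 were below the tissue median in brain. Depth limits the serum values of 7 members with under 25 reads in all 3 libraries.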

Other observations

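The precursors most like the clusters depended on thymus and spleen. Without these tissues, the profiles closest to mir-17-92 over the other 13 were those of mir-881 (r = 0.73), which was at 21533 RPM in testes against a tissue median of 3.8 RPM, and of mir-872 (r = 0.72). For mir-106b-25, mir-16 (r = 0.82) and mir-140 (r = 0.81) stayed first and second, and mir-224 (r = 0.76) and the mir-351 copies (r = 0.75 and 0.74), all highest in lung, followed. Mir-142, the blood cell precursor, was no longer among the 5 closest to mir-17-92. Nor was mir-142 among them when only the library labelled pancreas was left out, which put it among the 5 closest to mir-106b-25 (r = 0.74). These values describe single libraries and carry no test.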
